A study of Arabidopsis thaliana with 20 samples.

Results

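The subject is the morning response of Arabidopsis seedlings to warmth at the level of transcripts, read from the 4 'Heat AM' libraries set against the 4 'Control AM' libraries. These are 8 of the 20 RNA-Seq libraries of the series, chosen by their labels alone and not by any measured value. AM heat seedlings were held at 30 °C for 1 h from ZT 0.5 (ZT counts the hours after lights on), and AM control seedlings stayed at 23 °C over the same hour. Both groups were wild type Col-0, a single inbred accession, grown for 14 days on agar in cycles of 12 h light and 12 h dark, and RNA came from the tissue above ground of a number of seedlings that is not given in the sources used here. PM heat and PM control libraries (4 each, 30 °C or 23 °C for 1 h from ZT 12.5) and 1 AM heat and 1 AM control library from seedlings kept 2 days in constant light are used only to show where the AM response differs. The question is which gene families and processes moved within 1 h of a mild temperature step.

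As background, a warm step leaves part of the cell's proteins at risk of unfolding, and plants answer through heat shock factors, transcription factors that sit in inactive complexes with chaperones and bind heat shock elements once released. Their targets encode heat shock proteins: small HSPs hold unfolded proteins, HSP70 and HSP90 refold and mature them, and HSP101 pulls aggregates apart. Unfolded proteins in the endoplasmic reticulum (ER) are sensed separately, by membrane-tethered bZIP factors that induce the folding enzymes of that compartment. Milder warmth is also read by phytochrome B and ELF3, which act on PIF growth factors and on the circadian clock.

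Reads assigned to loci numbered 16151248 to 29170840 per AM heat library and 14896808 to 25632892 per AM control library. Transcript levels are given as CPM, the counts per 1000000 reads after edgeR's TMM scaling. No library repeated another, and libraries with the same replicate number deviated together, so the number was kept as a block in the fit. Libraries of unlike number deviated together as well within numbers 3 and 4, and less closely within numbers 1 and 2. Numbers 1 and 2 also resembled each other more than they resembled numbers 3 and 4, and numbers 3 and 4 likewise resembled each other most. Across the 8 libraries the first principal component (52.7% of the variance) separated AM heat from AM control and the second (32.4%) separated numbers 1 and 2 from numbers 3 and 4. The labelled tissue was checked against markers. The summed level of 8 shoot markers overlapped, between 41195 and 50343 CPM in AM heat and between 45770 and 53224 CPM in AM control (here and for the root markers, CPM of the plain library total). A set of 7 root markers (SHV2, also called COBL9, EXPA7, EXPA18, CASP1, CASP2, IRT1 and NRT2:1), which should be near 0 in aerial tissue, was present in every library and summed to 19.7, 14.3, 9.72 and 19.6 CPM in AM heat, against 55.0, 53.9, 59.9 and 70.7 CPM in AM control. Root transcripts therefore differed between the groups without overlap, and 6 of the 7 root markers fell. NRT2:1, a nitrate transporter of roots, had no read in any AM heat library, and the 37 reads of the AM control group put it at least 13.4-fold lower after heat (a floor of 3 counts over the group). The PM groups gave the same direction, 7.87 to 29.965 CPM in PM heat and 41.5 to 77.4 CPM in PM control. In constant light the same sum was 17.6 CPM in AM heat and 7.82 CPM in AM control, the other way round. The root marker sum differed beside every group of genes that fell, and its part in those falls was not tested.

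**Figure D1:**
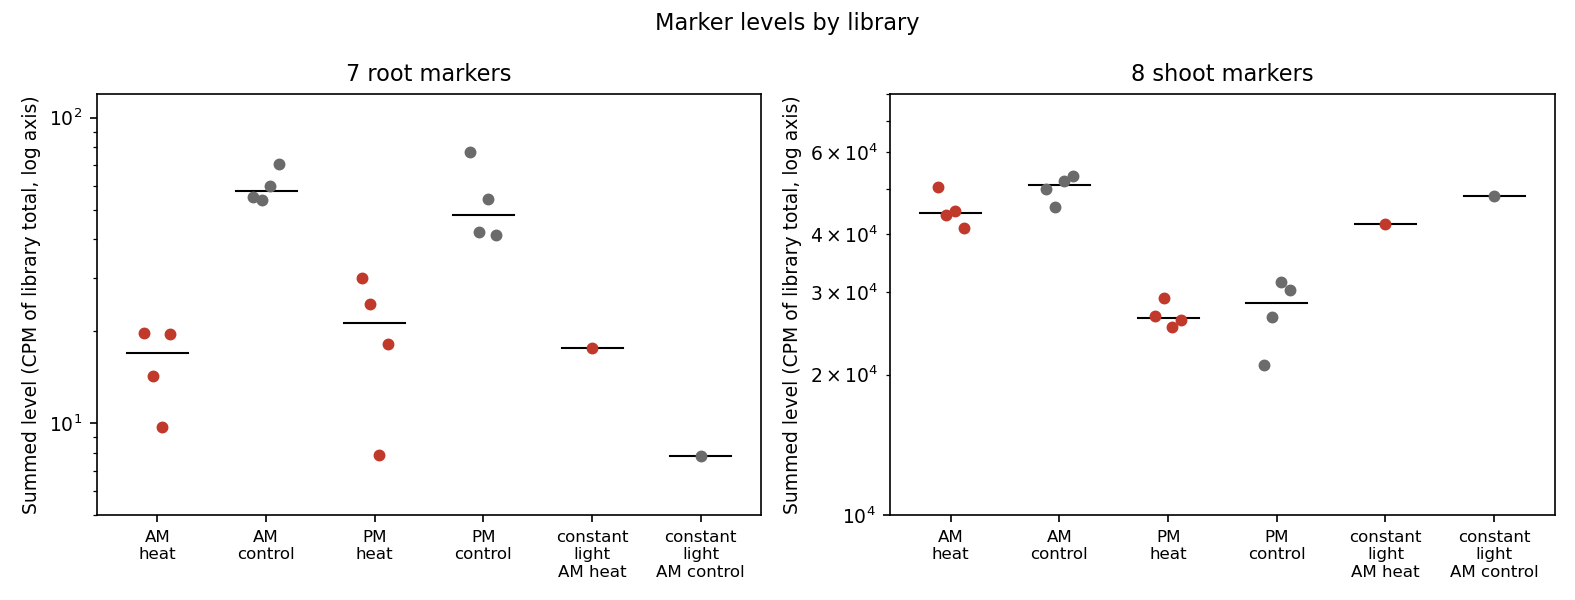
Summed level of 7 root markers (left) and of 8 shoot markers (right) in each library, in CPM on a log axis. Points are single libraries and horizontal lines are group medians. The 4 AM heat libraries lie between 9.72 and 19.7 CPM of root markers, below all 4 AM control libraries (53.9 to 70.7 CPM), while the shoot marker sums overlap.

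Of 21404 loci with at least 10 reads in at least 1 of the 16 libraries in light:dark cycles, 5132 changed after the warm hour, with an adjusted p under 0.05 and an absolute log2 fold change over 0.5. That is 24% of the loci tested. Upregulation was called for 1737 loci (8.12%) and downregulation for 3395 (15.9%). These shares are the background for the counts of list members given below. Falls were more numerous, but not among the largest changes: 91 loci rose and 77 fell by over 3 on the log2 scale, against 665 and 1846 by over 1. The median log2 fold change of all loci tested was 0.00. The groups did not overlap at all for 21.5% of loci, among them 1064 of those that rose and 2134 of those that fell. Without the replicate block 2778 loci were called. The fit on numbers 1 and 2 alone called 4380 loci and that on numbers 3 and 4 alone 4829. Of the 5132 changes 5128 had the same sign in both. They were called on these same 8 libraries, so this agreement was largely set by the selection and is no independent support. Scaling to the plain library totals moves the median of all loci by -0.15 and turns the split into 1109 that rose and 4481 that fell, so the share of rises (33.8% here, 19.8% there) depends on the scaling. The p-values of AM heat against AM control measure the spread between these 4 numbered pairs of libraries, and no source says that the numbers are separate cultures.

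The genes that rose furthest carry heat shock elements more often than most genes do. The regions shown run from 250 bases before to 50 bases after the gene start in the RefSeq annotation of TAIR10.1, and 21264 of the loci tested had one. The perfect element GAANNTTC, which reads the same on both strands, was in 16.7% of the windows of genes that rose, 10.8% of those that fell and 11.4% of all. Among the 195 genes that rose by over 2 on the log2 scale it was in 23.6%. The longer form with 3 alternating GAA and TTC units (GAANNTTCNNGAA or TTCNNGAANNTTC, each holding the shorter element) was in 9.74% of those 195, 2.66% of all that rose, 0.357% of those that fell and 0.555% of all. A match is a description of the letters in the window. The windows of a class I small HSP gene, HSP17.4, HSP70 and the factor HSFA2, whose levels are given further on, are printed as examples of 3-unit elements in genes that rose far. Most heat shock protein genes lack this form in the window: it was in 2 of 9 cytosolic small HSPs (the 2 printed), 0 of 6 organelle small HSPs, 3 of 17 HSP70s, 0 of 7 HSP90s and 0 of 7 in the set of HSP101, Clp proteins and HSA32. Capitals mark each element, with its last unit where there are 3, and each line runs 5′ to 3′ toward the gene.
AT1G53540, chr1:19980049-19980348 (plus strand): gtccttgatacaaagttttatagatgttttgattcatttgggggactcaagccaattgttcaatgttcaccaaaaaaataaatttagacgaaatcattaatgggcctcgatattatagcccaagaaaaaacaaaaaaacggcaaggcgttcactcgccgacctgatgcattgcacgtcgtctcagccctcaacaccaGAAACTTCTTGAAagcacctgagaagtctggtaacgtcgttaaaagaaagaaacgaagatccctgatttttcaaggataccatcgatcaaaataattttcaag
HSP17.4 (AT3G46230), chr3:16984818-16985117 (minus strand): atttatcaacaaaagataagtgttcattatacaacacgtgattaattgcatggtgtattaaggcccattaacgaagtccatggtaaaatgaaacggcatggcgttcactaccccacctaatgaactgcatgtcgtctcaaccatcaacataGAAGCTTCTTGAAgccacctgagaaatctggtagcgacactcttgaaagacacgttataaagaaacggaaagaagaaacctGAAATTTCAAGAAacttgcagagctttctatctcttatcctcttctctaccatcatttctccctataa
HSP70 (AT3G12580), chr3:3993837-3994136 (minus strand): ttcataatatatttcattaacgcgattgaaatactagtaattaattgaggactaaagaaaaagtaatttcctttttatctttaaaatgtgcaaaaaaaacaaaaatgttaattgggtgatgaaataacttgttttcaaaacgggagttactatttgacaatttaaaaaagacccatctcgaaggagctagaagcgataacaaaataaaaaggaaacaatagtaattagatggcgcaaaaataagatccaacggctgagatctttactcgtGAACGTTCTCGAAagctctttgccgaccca
HSFA2 (AT2G26150), chr2:11135374-11135673 (plus strand): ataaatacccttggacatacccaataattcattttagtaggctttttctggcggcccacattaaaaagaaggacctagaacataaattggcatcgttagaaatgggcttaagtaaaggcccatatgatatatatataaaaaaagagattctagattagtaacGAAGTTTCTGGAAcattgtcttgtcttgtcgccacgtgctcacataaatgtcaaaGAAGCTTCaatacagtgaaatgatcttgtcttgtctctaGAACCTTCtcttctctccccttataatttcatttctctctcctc
HSP17.4 holds 2 such elements, HSFA2 holds 3 of which 1 has 3 units, and AT1G53540 and HSP70 hold 1 each, the last of them downstream of the annotated start.

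Small HSPs were the group that moved most. Every tested member rose, 9 of 9 in the cytosol with a median log2 fold change of 7.15 and 6 of 6 in organelles with a median of 6.91, and in none did AM heat and AM control overlap. HSP17.4, a class I cytosolic small HSP, had 2129.6, 2413, 1743 and 2006 CPM in AM heat, against 10.1, 14.1, 6.76 and 4.69 CPM in AM control (log2 fold change 7.93 ± 0.23 SE, adjusted p = 1.3e-08). The AM heat libraries were all high and numbers 1 and 2 of AM heat were above numbers 3 and 4. AT1G53540, annotated as an HSP20-like chaperone, had 1635, 1768, 759.9 and 841 CPM in AM heat, against 4.05, 13.7, 2.01 and 2.75 CPM in AM control (log2 fold change 8.02 ± 0.29 SE, adjusted p = 4.9e-08). Here too numbers 1 and 2 of AM heat were above numbers 3 and 4, and every AM control library was below all of them. HSP17.6A and HSP17.6II, class II members whose near-identical sequences leave the split of reads between them uncertain, averaged 1217 ± 506 CPM in AM heat and 9.41 ± 8.29 CPM in AM control and 1217 ± 504 CPM in AM heat and 10.1 ± 9.33 CPM in AM control. AT2G29500 and AT1G07400, also HSP20-like, averaged 1955 ± 716 CPM in AM heat and 14.7 ± 8.73 CPM in AM control and 1421 ± 513 CPM in AM heat and 18.8 ± 14.9 CPM in AM control. Among organelle members HSP23.6-MITO, of the mitochondrion, had 788, 1105, 295 and 384 CPM in AM heat, against 7.48, 5.24, 0.975 and 1.32 CPM in AM control (log2 fold change 7.53 ± 0.25 SE, adjusted p = 2.5e-08). HSP21, which protects the chloroplast, had 85.8, 98.3, 22.9 and 15.4 CPM in AM heat, against 0.286, 0.595, 0.122 and 0.204 CPM in AM control (log2 fold change 7.50 ± 0.19 SE, adjusted p = 4.8e-09). ATHSP22.0, of the ER, had 44.3, 76.8, 16.8 and 15.3 CPM in AM heat, against 0.0817, 0.149, 0 and 0.102 CPM in AM control, and its log2 fold change of 8.77 ± 0.22 (SE) was the largest of all rises under the rule for named genes although its level stayed modest.

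HSP70, HSP90 and the disaggregases rose next. In the HSP70 family 13 of 17 members rose and 0 fell (median log2 fold change 1.86), in the HSP90 family 6 of 7 (1.99), and 4 of 7 members rose in the set of HSP101, Clp proteins and HSA32 (1.43). HSP70 itself (AT3G12580) had 7799.9, 8905, 2867 and 3152 CPM in AM heat, against 449, 459, 66.0 and 64.1 CPM in AM control (log2 fold change 4.86 ± 0.28 SE, adjusted p = 1.3e-06). That is the largest gain in mean CPM of any locus called, 5421 CPM. HSC70-1, the constitutive cytosolic form, rose by 1.42 on the log2 scale but by 2601 CPM, since its AM control level was already 1588 CPM. HSP90.1 had 4788, 5153, 1525 and 1562 CPM in AM heat, against 177, 133, 22.5 and 17.9 CPM in AM control (log2 fold change 5.62 ± 0.28 SE, adjusted p = 4.5e-07). Its 4 AM heat libraries lay far above every AM control library. HSP81-2 and HSP81-3, cytosolic HSP90s with closely similar sequences, averaged 1539 ± 860.3 CPM in AM heat and 273 ± 153 CPM in AM control and 1101 ± 604 CPM in AM heat and 299 ± 203 CPM in AM control. HSP101, required for thermotolerance through its action on aggregates, had 1153, 1367, 411 and 377 CPM in AM heat, against 36.6, 39.1, 8.04 and 8.05 CPM in AM control (log2 fold change 5.30 ± 0.15 SE, adjusted p = 1.1e-08). HSA32, which prolongs acquired thermotolerance, rose by 5.32 on the log2 scale and averaged 248 ± 84.7 CPM in AM heat and 6.07 ± 1.34 CPM in AM control. Of the HSP101 relatives in organelles, CLPB4 rose by 3.29 ± 0.13 and CLPB3 by 1.43 ± 0.16 on the log2 scale (SE).

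**Figure D2:**
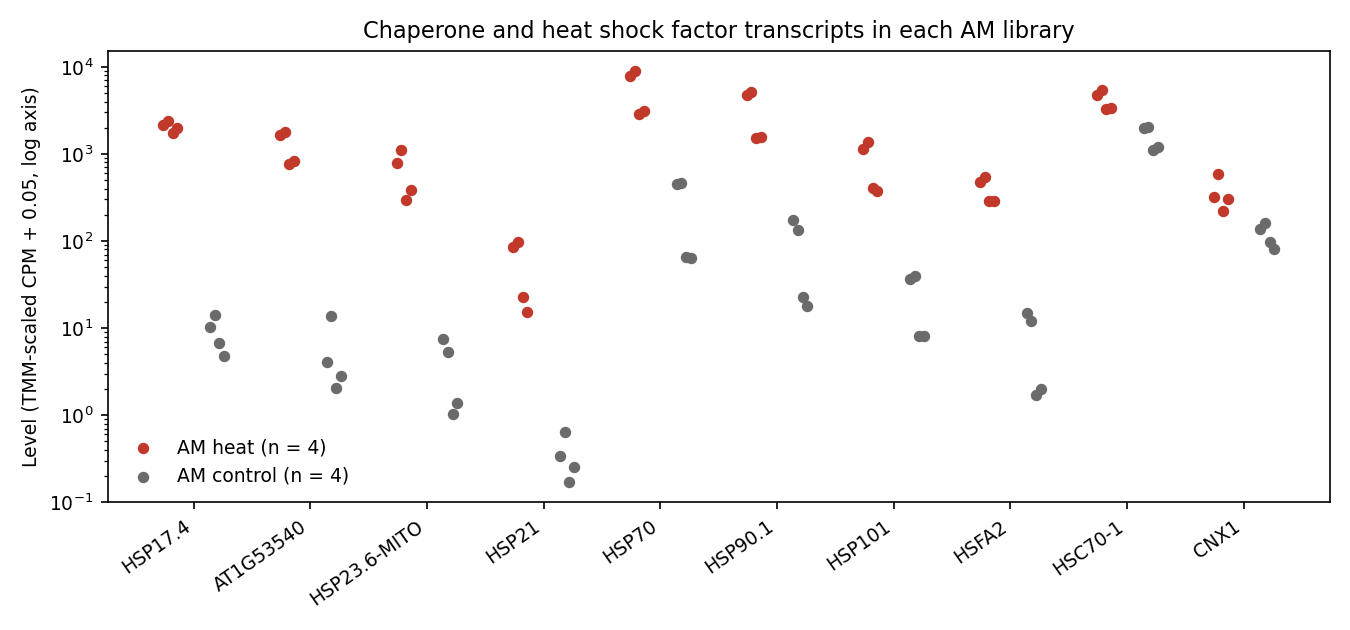
Level of 10 genes in each of the 8 AM libraries, in TMM-scaled CPM on a log axis (0.05 CPM added to every value). Red points are AM heat and grey points AM control, 4 each. HSP17.4 to HSFA2 separate by large factors, HSC70-1 and CNX1 by small ones, and in each of the 10 no AM heat point overlaps an AM control point.

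Partner proteins of these chaperones rose as well. Of 16 cytosolic co-chaperones 11 rose and 0 fell (median log2 fold change 1.69). AT5G48570, an FKBP-type prolyl isomerase, had 4011, 4628, 1270.2 and 1445 CPM in AM heat, against 89.0, 77.9, 20.7 and 15.2 CPM in AM control (log2 fold change 5.96 ± 0.19 SE, adjusted p = 2.3e-08). Only HSP70 and HSP90.1 gained more in mean CPM among the loci called. Hop3, an adaptor between HSP70 and HSP90, rose by 4.96 ± 0.18, the J protein AT2G20560 by 4.49 ± 0.21 and BAG6 by 5.05 ± 0.11 (SE). In the wider family of DnaJ proteins the share was lower. Of 114 tested 14 rose (12.3%, against 8.12% of all loci) and 5 fell (4.39%, against 15.9%). Among chaperonins 7 of 12 rose and 0 fell (median 0.83), led by Cpn60beta2 of the chloroplast (2.66) and HSP60 of the mitochondrion (2.25).

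Folding enzymes of the ER rose as well, and here the AM response differed from the PM response. Of 16 members 12 rose and 0 fell, with a median log2 fold change of 0.89 after AM heat and -0.04 after PM heat. Whether a change differed between times of day was tested in 1 fit of all 16 light:dark libraries, as the PM change minus the AM change. It passed for 688 loci, 3.21% of all, and for 10 of these 16. Both counts lean on single replicate numbers: without number 1, 2, 3 or 4 the test passed for 130, 617, 102 or 19 loci and for 4, 11, 3 or 0 of the 16, while the median difference over the 16 stayed between -1.17 and -0.92. CNX1 (calnexin, a lectin chaperone) had 318, 588, 219.8 and 303 CPM in AM heat, against 136, 162, 96.2 and 80.6 CPM in AM control (log2 fold change 1.55 ± 0.14 SE, adjusted p = 3.0e-05). CNX1 had a PM log2 fold change of 0.10 (difference -1.52, adjusted p = 0.0166, lost without number 1, 3 or 4 at 0.0605, 0.061 and 0.262). PDIL2-2, a protein disulfide isomerase, had 26.4, 52.0, 30.2 and 38.9 CPM in AM heat, against 10.3, 10.7, 9.51 and 7.13 CPM in AM control (log2 fold change 1.94 ± 0.16 SE, adjusted p = 1.8e-05), with -0.06 in the PM (difference -2.04, adjusted p = 0.00408, and 0.11 without number 4). SDF2 and ATERDJ3B, which act together in glycoprotein folding, rose by 1.31 and 1.26 in the AM and differed from the PM by -0.97 and -1.26, differences that did not pass without number 3 or 4 (nor, for SDF2, without number 1). All 12 that rose were also higher in AM heat than in AM control in constant light. P58IPK, an ER-resident J protein added after its values were seen for the promoter it carries, rose by 1.12 ± 0.13 (SE), with a difference of -1.18 to the PM that passed only with all 4 numbers or without number 2 among the fits that leave out 1. Of these 16 promoters 4 hold the ER stress element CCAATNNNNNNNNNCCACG on either strand, 25% against 0.48% of all promoters, a motif chosen after the rises had been seen. The windows of CNX1 and P58IPK show it, in capitals, both times on the other strand.
CNX1 (AT5G61790), chr5:24829851-24830150 (minus strand): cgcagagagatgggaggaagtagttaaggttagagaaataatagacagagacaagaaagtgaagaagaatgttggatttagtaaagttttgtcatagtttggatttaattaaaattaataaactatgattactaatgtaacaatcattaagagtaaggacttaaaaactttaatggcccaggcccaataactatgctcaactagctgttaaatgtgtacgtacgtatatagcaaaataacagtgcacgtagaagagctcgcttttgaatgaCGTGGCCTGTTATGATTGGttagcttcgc
P58IPK (AT5G03160), chr5:749851-750150 (plus strand): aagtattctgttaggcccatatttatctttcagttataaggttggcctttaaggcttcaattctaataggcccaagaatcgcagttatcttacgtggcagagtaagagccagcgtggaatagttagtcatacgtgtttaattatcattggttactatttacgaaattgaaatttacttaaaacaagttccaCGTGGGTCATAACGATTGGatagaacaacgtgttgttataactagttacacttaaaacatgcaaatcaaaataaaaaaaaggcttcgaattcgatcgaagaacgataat

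**Figure D3:**
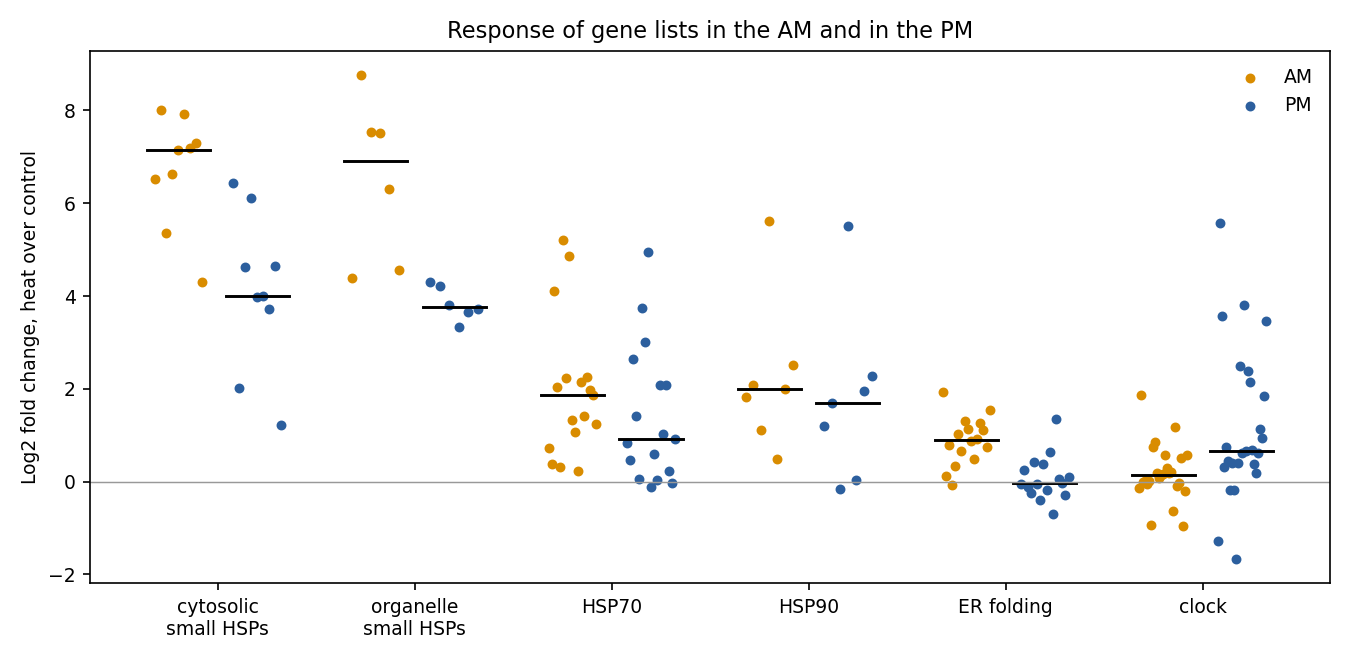
Log2 fold change (heat over control) of each tested member of 6 gene lists, with AM on the left and PM on the right within each list. Points are genes and horizontal lines are medians. The small HSPs have AM medians of 7.15 and 6.91 above their PM medians of 3.99 and 3.77, ER folding has 0.89 in the AM against -0.04 in the PM, and HSP90 differs little (1.99 and 1.69).

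The same test passed for part of the small HSPs. It passed for 6 of the 9 cytosolic and 3 of the 6 organelle members, all with the larger change in the AM, and for none of the 15 without number 4, when the medians of the differences were -3.05 and -3.21. AT1G53540 rose by 8.02 in the AM (difference -6.07, adjusted p = 0.00711). Its PM log2 fold change of 2.02 did not pass in the fit of the PM libraries alone (adjusted p = 0.0894). For HSP17.4 the difference was -4.19 (adjusted p = 0.0119) and for HSP23.6-MITO -3.77 (adjusted p = 0.00540). AT1G07400 had 6.53 in the AM and 6.43 in the PM, a difference of -0.08 ± 0.60 (SE) that did not pass (adjusted p = 0.960). HSP70, HSP90.1 and HSP101 did not pass either, with differences of 0.18 ± 0.48, -0.03 ± 0.55 and 0.09 ± 0.45 (SE).

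Of 19 heat shock factors tested 6 rose (31.6%, against 8.12% of all loci) and 3 fell (15.8%, against 15.9%), with a median log2 fold change of 0.10. The 6 that rose had a median of 2.67 and the 3 that fell a median of -1.14. HSFA2, which sustains the response, had 470.3, 549.5, 287 and 289 CPM in AM heat, against 14.9, 12.0, 1.65 and 1.94 CPM in AM control (log2 fold change 6.01 ± 0.37 SE, adjusted p = 2.0e-06). The repressor AT-HSFB2B rose by 2.63 ± 0.14 and HSFA7A by 2.71 ± 0.17 (SE). AT-HSFA7B had 3.48, 3.21, 2.54 and 2.47 CPM in AM heat, against 0.123, 0.0743, 0 and 0.306 CPM in AM control (log2 fold change 4.50 ± 0.43 SE, adjusted p = 4.0e-05). It was nearly silent in the control. The HSFA1 factors, held to start the response at the protein level, did not pass: HSF1 (HSFA1A), HSF3 (HSFA1B), HSFA1D and HSFA1E had log2 fold changes of 0.17, 0.01, 0.38 and 0.30. MBF1C, a coactivator needed for thermotolerance, had 713, 609, 416 and 352 CPM in AM heat, against 34.5, 25.4, 9.75 and 8.0 CPM in AM control (log2 fold change 4.92 ± 0.20 SE, adjusted p = 1.1e-07). DREB2A, a factor shared by drought and heat responses, rose by 1.73 ± 0.17 (SE). MBF1C and DREB2A were the 2 of 6 in their list that rose.

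Protective metabolism moved through single genes rather than whole pathways. APX2, a cytosolic ascorbate peroxidase, had 31.2, 57.5, 21.6 and 17.2 CPM in AM heat, against 0.450, 0.409, 0.305 and 0.357 CPM in AM control (log2 fold change 6.39 ± 0.19 SE, adjusted p = 1.4e-08), and differed from the PM by -4.29 (adjusted p = 0.00807), a call lost without number 3 or 4 (0.066 and 0.107). The abundant APX1 rose by 1.05 to 1694 CPM in AM heat, against 818 CPM in AM control. The remaining 9 tested genes of hydrogen peroxide scavenging were not called. GolS1, which makes galactinol for raffinose, had 799, 1078, 655 and 571 CPM in AM heat, against 72.5, 60.1, 72.5 and 59.1 CPM in AM control (log2 fold change 3.52 ± 0.17 SE, adjusted p = 3.2e-07). GolS2 rose too (1.49), while GolS4 fell by 1.26 on the log2 scale. GolS3 fell by 1.19, a call lost without number 2 or number 3 (adjusted p 0.0859 and 0.0566). Within the glutathione transferases GSTF8, a stress marker of the phi class, rose to 1737 CPM in AM heat, against 434 CPM in AM control (log2 fold change 1.99 ± 0.11 SE, adjusted p = 8.0e-07), in a family where 18 of 42 fell and 6 rose.

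RNA processing was touched in a few factors. SR proteins choose splice sites, and 5 of 20 rose (25%) and 1 fell (5%). SR45a had 421, 409, 394 and 346 CPM in AM heat, against 59.8, 56.6, 28.0 and 32.1 CPM in AM control (log2 fold change 3.22 ± 0.17 SE, adjusted p = 6.6e-07). SR30 rose by 2.40 ± 0.10 (SE), with 620.1 CPM in AM heat and 118 CPM in AM control, and SCL33 by 1.11 ± 0.09. RS40 fell (log2 fold change -0.58). In the wider family of splicing proteins 4 of 53 rose and 3 fell, no more than among all loci (8.12% and 15.9%), and 6 of the 53 are SR proteins already counted, among them 2 of its 4 rises and 1 of its 3 falls.

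In the circadian clock 6 of 25 genes tested rose (24%, against 8.12% of all loci) and 1 fell (4%, against 15.9%). EPR1, a MYB-like factor of the CCA1 family, had 86.8, 68.0, 96.7 and 66.3 CPM in AM heat, against 33.0, 22.6, 13.7 and 18.9 CPM in AM control (log2 fold change 1.88 ± 0.19 SE, adjusted p = 6.1e-05). RVE2, from the same family, rose by 1.17 ± 0.12. CCA1, the dawn repressor, had 455, 436, 642 and 491 CPM in AM heat, against 293, 299, 240.4 and 284 CPM in AM control (log2 fold change 0.84 ± 0.14 SE, adjusted p = 0.00128), and all 4 AM heat libraries were above all 4 AM control libraries. Its close relative LHY had a log2 fold change of -0.14 ± 0.13 (SE) that was not called (adjusted p = 0.405). PRR5 was the clock gene that fell (-0.63), at 1.15 CPM in AM heat and 1.78 CPM in AM control, and its call was lost without any one of the 4 numbers (adjusted p 0.0541 to 0.162). In 10 of the 25 the change differed between AM and PM (7, 10, 8 or 5 without number 1, 2, 3 or 4), and for EPR1 the PM change was larger (5.58, difference 3.72, adjusted p = 2.4e-04). PIF4, the main growth factor of warm seedlings, was not called in the AM, with 113, 92.8, 109 and 87.5 CPM in AM heat, against 93.0, 61.7, 74.6 and 95.6 CPM in AM control (log2 fold change 0.32 ± 0.12, adjusted p = 0.0573). The groups overlapped. Its PM log2 fold change was 2.86, and the difference of 2.52 passed (adjusted p = 3.0e-04). PIL6 (PIF5) gave the same contrast, -0.02 in the AM and 3.24 in the PM (difference 3.25, adjusted p = 2.0e-05). For EPR1, PIF4 and PIL6 the difference passed whichever number was left out. In the list of PIFs and warm-growth genes 2 of 17 rose, HFR1 (0.80) and PIL5 (0.64), and 3 fell, shares of 11.8% and 17.6% near those of all loci.

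Growth and water transport genes went both ways. Of 28 aquaporins 8 rose (28.6%, against 8.12% of all loci) and 9 fell (32.1%, against 15.9%). PIP2A, an abundant water channel of the plasma membrane, had 3968, 3699, 2598 and 2417 CPM in AM heat, against 2053, 1747, 1607 and 1556 CPM in AM control (log2 fold change 0.84 ± 0.12 SE, adjusted p = 5.6e-04). PIP3 rose by 1.50 ± 0.12 (SE). TIP4;1, of the tonoplast, fell by 2.08 on the log2 scale, at 1.72 CPM in AM heat and 7.30 CPM in AM control. The 8 that rose were all higher in AM heat in constant light, and of the 7 fallers counted there 4 were lower. Among XTH enzymes, which remodel cell walls, 5 of 26 rose (19.2%) and 8 fell (30.8%). XTH6 rose to 279.6 CPM in AM heat, against 121 CPM in AM control, and XTH20 fell to 0.306 CPM in AM heat, against 1.59 CPM in AM control. Auxin-induced SAUR genes gave 12 rises (19.4%) and 6 falls (9.68%) in 62, led by AT1G72430 (1.43). In gibberellin metabolism 5 of 12 fell (41.7%) and 2 rose (16.7%). GA3OX2, a synthesis enzyme, fell by 1.84 on the log2 scale, and the receptor GID1A rose by 0.68. BR6OX2, of brassinosteroid synthesis, rose by 1.15 ± 0.09 (SE), with no overlap between AM heat and AM control, and differed from the PM by -1.23 (adjusted p = 0.00408, and 0.0669 without number 4).

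**Figure D4:**
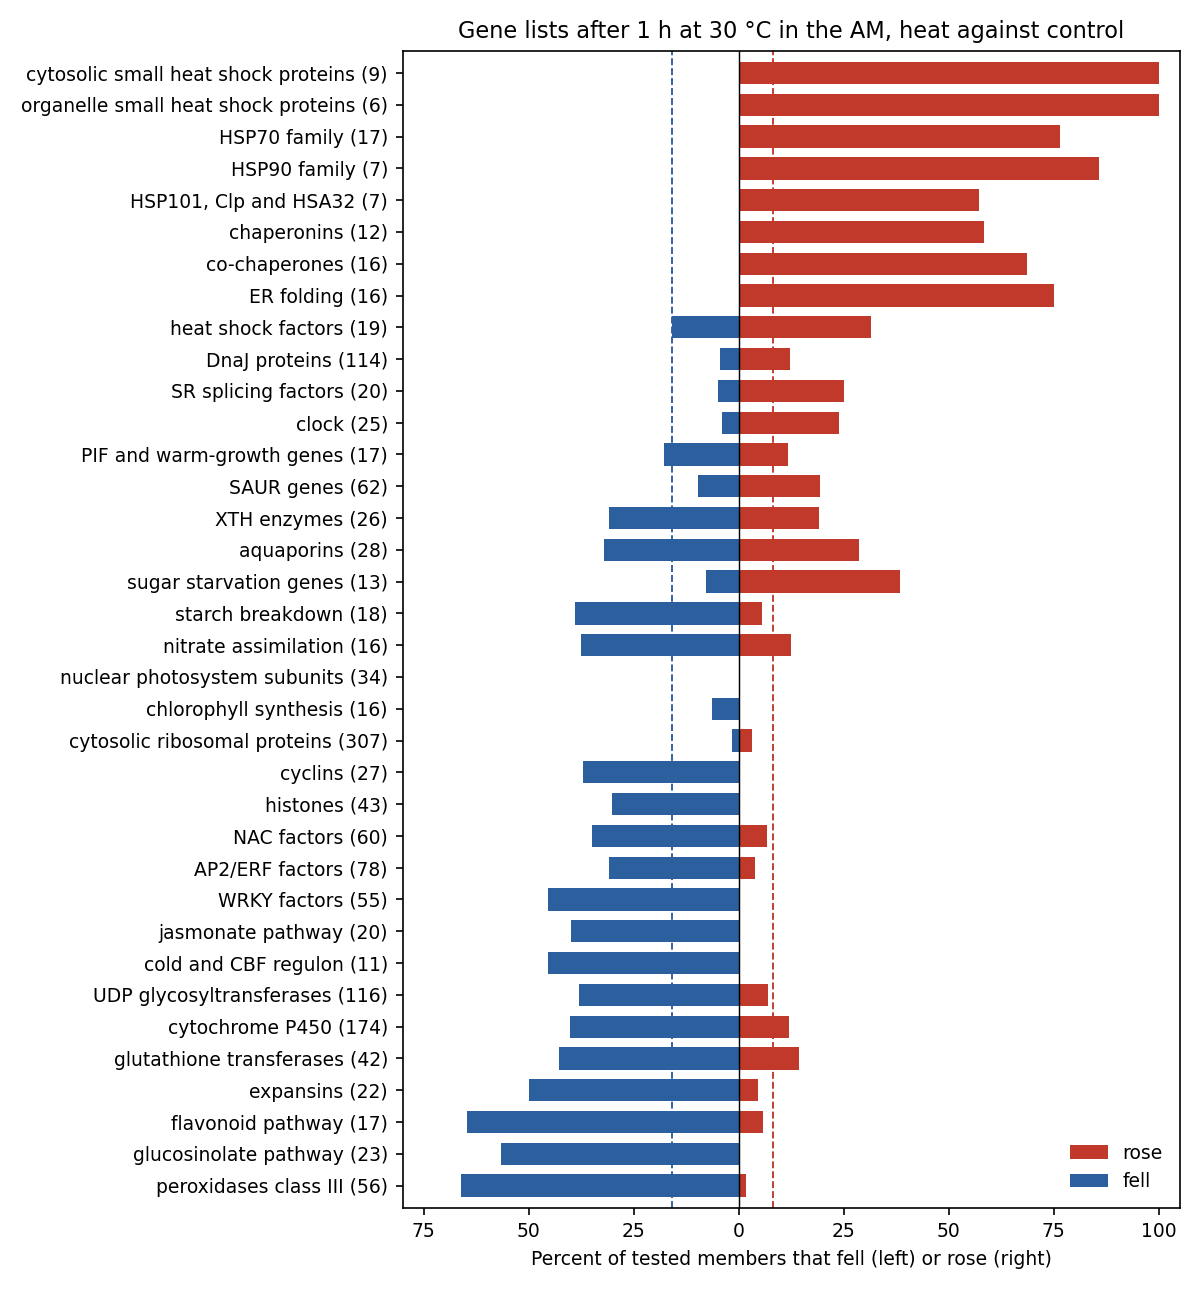
Percentage of tested members that rose (red, to the right) and fell (blue, to the left) after 1 h at 30 °C in the AM for 36 gene lists and families, with the number tested in brackets. Dashed lines mark the share of all 21404 loci that rose (8.12%) and fell (15.9%). Folding lists lie to the right, class III peroxidases, glucosinolate and flavonoid genes to the left, and photosystem and ribosomal proteins near 0 on both sides.

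Class III peroxidases, secreted enzymes of cell walls many of them typical of roots, fell as a family. Of 56 tested 37 fell and 1 rose (66.1% against 15.9% of all loci), with a median log2 fold change of -1.41. PRXR1, the most abundant of those named, had 445, 317, 574 and 458 CPM in AM heat, against 723, 673, 994 and 859 CPM in AM control (log2 fold change -0.87 ± 0.10 SE, adjusted p = 1.8e-04). AT4G08780 averaged 0.359 ± 0.158 CPM in AM heat and 2.35 ± 1.16 CPM in AM control. The root marker sum was lower as well, as given above, and the constant light pair went the other way for both: 29 of 32 fallers counted there were higher in AM heat, as were 5 of 5 root markers counted there. Expansins, which loosen walls, fell in 11 of 22 and rose in 1, and 8 of 9 fallers were higher in AM heat in constant light. XTH fallers were higher there in 7 of 7. EXT3, a wall extensin, had 292, 217, 119 and 187 CPM in AM heat, against 691, 788, 428 and 489.6 CPM in AM control (log2 fold change -1.58 ± 0.13 SE, adjusted p = 1.4e-05), and stood at 267 CPM in AM heat and 109.9 CPM in AM control in constant light. PYK10, the beta-glucosidase of ER bodies in roots and seedlings, averaged 1103 ± 153 CPM in AM heat and 2142 ± 272 CPM in AM control (log2 fold change -0.96), and stood at 1993 CPM in AM heat and 899 CPM in AM control in constant light. THAS1, the synthase of the root triterpene thalianol, and the cytochrome P450 gene CYP705A5 fell together. They lie close together on chromosome 5 (chr5:19456837-19461706 and chr5:19434758-19436749, TAIR10.1). THAS1 had 7.24, 3.29, 4.65 and 9.38 CPM in AM heat, against 31.4, 45.2, 50.3 and 55.2 CPM in AM control (log2 fold change -2.92 ± 0.23 SE, adjusted p = 1.1e-05), and CYP705A5 averaged 7.88 ± 4.26 CPM in AM heat and 49.0 ± 7.13 CPM in AM control. In constant light THAS1 stood at 9.25 CPM in AM heat and 8.85 CPM in AM control, nearly level. For most peroxidases and expansins that fell, the XTH genes that fell, EXT3 and PYK10 the direction was thus that of the root marker sum in both light regimes, and the part of root tissue in these values was not tested. It was not so for the XTH family as a whole, whose summed level was higher in AM heat (762 to 1542 CPM) than in AM control (521 to 967 CPM) of the same number in all 4 pairs.

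Other secondary metabolism fell too. In glucosinolate synthesis, which makes the defence compounds of the mustard family, 13 of 23 fell (56.5%) and 0 rose (median log2 fold change -0.56). CYP79B2, the entry to indole glucosinolates, had 16.8, 20.5, 9.54 and 14.9 CPM in AM heat, against 42.3, 74.2, 29.3 and 32.7 CPM in AM control (log2 fold change -1.49 ± 0.12 SE, adjusted p = 1.3e-05), and CYP83B1, the next step, averaged 53.5 ± 7.79 CPM in AM heat and 110.3 ± 22.3 CPM in AM control. IMS2 fell by 2.25 on the log2 scale. In constant light 10 of the 12 fallers counted were lower in AM heat. IGMT3, an indole glucosinolate methyltransferase, had 7.34, 8.15, 1.43 and 2.06 CPM in AM heat, against 45.4, 69.9, 12.8 and 20.7 CPM in AM control (log2 fold change -3.00 ± 0.13 SE, adjusted p = 1.3e-07). Flavonoid genes fell in 11 of 17 and rose in 1, MYB111 (0.79), a regulator of flavonols whose call was lost without number 2, 3 or 4 (adjusted p 0.0515, 0.0589 and 0.117). DFR, at the branch to anthocyanins, had 7.67, 14.2, 11.2 and 10.2 CPM in AM heat, against 14.7, 30.4, 53.6 and 37.8 CPM in AM control (log2 fold change -1.55 ± 0.19 SE, adjusted p = 2.1e-04), and the next enzyme LDOX averaged 9.66 ± 2.86 CPM in AM heat and 27.4 ± 11.7 CPM in AM control. FLS1, of flavonols, fell by 1.39. Of the 11 fallers 8 were lower in AM heat in constant light. In the large families 70 of 174 cytochrome P450s fell (40.2%, against 15.9% of all loci) and 21 rose (12.1%, against 8.12%), and 44 of 116 UDP glycosyltransferases fell (37.9%) and 8 rose (6.90%). The root marker sum was lower in AM heat beside these falls as well, and its part was not tested. In constant light 27 of 57 P450 fallers and 25 of 38 glycosyltransferase fallers were lower in AM heat, where 50.9% of all loci were. GSTU25, a tau class glutathione transferase, had 1.62, 1.03, 1.18 and 1.60 CPM in AM heat, against 7.36, 10.3, 18.6 and 15.2 CPM in AM control (log2 fold change -3.16 ± 0.23 SE, adjusted p = 6.2e-06). CYP712A2 had no read in AM heat and 50 in AM control, at least 18.1-fold lower by the same floor.

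Defence and fast stress regulators were among the factors that fell. No WRKY factor of 55 rose and 25 fell (45.5%, median log2 fold change -0.51). WRKY31 had 1.48, 1.26, 0.868 and 0.869 CPM in AM heat, against 5.80, 9.74, 2.92 and 3.77 CPM in AM control (log2 fold change -2.27 ± 0.22 SE, adjusted p = 4.5e-05), and WRKY72 averaged 1.79 ± 0.985 CPM in AM heat and 7.76 ± 2.87 CPM in AM control. NAC factors fell in 21 of 60 and rose in 4, and AP2/ERF factors fell in 24 of 78 and rose in 3. MYB domain factors, found by name, fell in 29 of 90 and rose in 8, and receptor-like kinases fell in 54 of 185 and rose in 5. Against 15.9% and 8.12% of all loci, these are 35% that fell and 6.67% that rose for NAC, 30.8% and 3.85% for AP2/ERF, 32.2% and 8.89% for MYB and 29.2% and 2.70% for the kinases. In constant light 10 of 16 NAC, 7 of 20 AP2/ERF, 10 of 21 MYB and 27 of 46 kinase fallers counted were higher in AM heat. The root marker sum was lower in AM heat (9.72 to 19.7 CPM) than in AM control (53.9 to 70.7 CPM) beside all of these, and its part was not tested. ORA47, an AP2/ERF factor that switches on jasmonate synthesis, had 0.381, 0.191, 0.496 and 0.320 CPM in AM heat, against 13.0, 3.57, 12.7 and 27.5 CPM in AM control (log2 fold change -5.28 ± 0.26 SE, adjusted p = 4.0e-07). Its AM control level varied widely and still exceeded every AM heat library. The PM log2 fold change was 1.10, of the opposite sign, and did not pass in the fit of the PM libraries alone (adjusted p = 0.0987). The difference of 6.16 passed (adjusted p = 0.00669, and 0.0669 without number 4). In constant light ORA47 stood at 0.737 CPM in AM heat and 0.730 CPM in AM control. Jasmonate genes fell in 8 of 20 (40%) and rose in 0. AOC2, an enzyme of jasmonate synthesis, averaged 26.2 ± 9.25 CPM in AM heat and 71.6 ± 12.7 CPM in AM control, and JAZ1, a repressor that jasmonate induces, 6.52 ± 2.73 CPM in AM heat and 15.6 ± 3.45 CPM in AM control. ERF2 and ERF5, quick ethylene and wound responders, fell by 1.72 and 1.58. In the cold regulon 5 of 11 fell (45.5%) and 0 rose. The 11 had a median log2 fold change of -0.60 in the AM and 0.12 in the PM. Of the 4 fallers counted in constant light 2 were lower in AM heat and 2 were higher. LTI78, a cold and drought gene, had 20.4, 21.1, 18.8 and 19.4 CPM in AM heat, against 36.2, 57.7, 83.2 and 55.8 CPM in AM control (log2 fold change -1.48 ± 0.17 SE, adjusted p = 1.2e-04), and in the PM 0.12 (difference 1.75, adjusted p = 0.0439, lost without any one of the 4 numbers at 0.0818 to 0.278 and without the block at 0.111). A rapid zinc finger went against these: ZAT7 stood at 11.5 CPM in AM heat and 1.44 CPM in AM control (log2 fold change 3.00 ± 0.22, SE). For WRKY factors the fallers counted in constant light were divided, with 10 of 20 lower in AM heat.

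Some cell cycle genes fell and none rose in the lists tested. Of 43 histone genes 13 fell (30.2%, against 15.9% of all loci) and 0 rose, and all 13 were lower in AM heat in constant light as well. The histone gene AT3G53730 had 19.5, 15.7, 21.8 and 21.5 CPM in AM heat, against 44.4, 37.6, 39.1 and 39.6 CPM in AM control (log2 fold change -1.05 ± 0.10 SE, adjusted p = 3.6e-05), and 17.9 CPM in AM heat and 35.5 CPM in AM control in constant light. Of 27 cyclins 10 fell (37.0%) and 0 rose. Of 8 MCM helicase subunits, which open replication origins, 1 fell (12.5%, below the 15.9% of all loci). CYCB1;4, of mitosis, averaged 1.58 ± 0.593 CPM in AM heat and 4.61 ± 2.04 CPM in AM control (log2 fold change -1.52), a low level at which the AM groups did not overlap. Cyclin fallers were lower in constant light in 6 of 10.

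Genes of primary metabolism moved in both directions. Starch breakdown fell in 7 of 18 (38.9%, against 15.9% of all loci) and rose in 1 (5.56%, against 8.12%). DPE2, which handles maltose, had 65.8, 58.4, 50.3 and 42.5 CPM in AM heat, against 90.8, 102, 89.1 and 77.8 CPM in AM control (log2 fold change -0.74 ± 0.09 SE, adjusted p = 2.5e-04), and SEX4, a glucan phosphatase, averaged 10.2 ± 0.837 CPM in AM heat and 16.8 ± 3.65 CPM in AM control. These 7 had a median log2 fold change of -0.68 after AM heat and 0.17 after PM heat, and 4 of them passed the test of the difference. They were picked for falling in the AM, which itself favours a positive difference. All 18 tested genes, taken without that choice, had medians of -0.15 after AM heat and 0.20 after PM heat. No gene outside the 7 passed. Of all 3395 loci that fell in the AM 145 passed. Without number 1, 3 or 4 the test passed for 0 of 18 starch breakdown genes. All 7 fallers were lower in AM heat in constant light. Starch synthesis gave 1 fall in 15 (6.67%). Among genes that low sugar induces 5 of 13 rose (38.5%) and 1 fell (7.69%). ASN1, an asparagine synthetase, had 484, 163, 144 and 70.2 CPM in AM heat, against 222, 77.9, 19.8 and 46.5 CPM in AM control (log2 fold change 1.36 ± 0.28 SE, adjusted p = 0.00424). DIN10 averaged 425 ± 267 CPM in AM heat and 208 ± 215 CPM in AM control. Both genes were higher in AM heat in each numbered pair, but the groups overlapped. Without the block neither was called (adjusted p 0.307 for ASN1 and 0.387 for DIN10). ASN1 was not called in the fit of all 16 light:dark libraries either (adjusted p = 0.113). In nitrate assimilation 6 of 16 fell (37.5%) and 2 rose (12.5%). NRT1.1, the transceptor, fell and averaged 45.8 ± 20.9 CPM in AM heat and 91.9 ± 15.4 CPM in AM control. Another of the 6 is NRT2:1, at 0 in AM heat, which is also 1 of the 7 root markers whose sum was lower in AM heat. Of the 5 fallers counted in constant light 4 were lower in AM heat.

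Few photosynthesis genes were called. None of 34 nuclear photosystem subunits, 5 Rubisco and activase genes and 9 photoreceptors was called, with median log2 fold changes of 0.05, 0.15 and 0.06. RCA, Rubisco activase, averaged 17549 ± 7236 CPM in AM heat and 13687 ± 4551 CPM in AM control. Of 16 antenna genes 3 fell (18.8%, near the 15.9% of all loci). LHB1B1 had 1213, 314, 811 and 405 CPM in AM heat, against 1983, 754, 1620.3 and 1857 CPM in AM control (log2 fold change -1.29 ± 0.21 SE, adjusted p = 0.00100), with overlapping groups and a call lost with a 2-level batch (adjusted p = 0.0524) or no block (adjusted p = 0.106), and CAB1 averaged 8017 ± 1274 CPM in AM heat and 12059 ± 3065 CPM in AM control, the largest loss in mean CPM of any locus called. The CAB1 call was lost without number 2 (adjusted p 0.0569), and without number 3 or 4 its log2 fold change was -0.49 or -0.38, inside the limit. Reads of the near-identical antenna genes may be shared among them. PORB, which makes chlorophyllide in light, was the only one of 16 chlorophyll genes to fall, with 30.4, 15.8, 21.4 and 23.0 CPM in AM heat, against 70.4, 34.4, 56.7 and 73.2 CPM in AM control (log2 fold change -1.35 ± 0.10 SE, adjusted p = 9.8e-06), and its PM change differed by 1.84 (adjusted p = 0.00917, and 0.135 without number 4). ELIP2, a photoprotective protein, had 197, 492, 62.2 and 212 CPM in AM heat, against 56.8, 398, 26.9 and 97.6 CPM in AM control (log2 fold change 1.10 ± 0.19 SE, adjusted p = 0.00163). It was higher in AM heat in each numbered pair but the groups overlapped, and the call was lost with a 2-level batch in place of the block (adjusted p = 0.293) and with no block (adjusted p = 0.594). Transcripts encoded in organelles fell in 33 of 113 and rose in 4, and 32 of the 33 were higher in AM heat in constant light. Their share of reads was lower in AM heat (0.0762% to 0.239%) than in AM control (0.143% to 0.424%) of the same number in all 4 pairs, and since the libraries select poly(A) tails this share measures the selection as well as the transcripts. Cytosolic ribosomal proteins were called in 15 of 307, with 10 that rose (3.26%) and 5 that fell (1.63%).

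In the PM the direction of rises and of falls was mostly the same as in the AM, whereas in constant light this held for the rises alone. The AM comparison and the PM comparison have no library in common, and the root marker sum was lower after heat in both. Of the genes that rose in the AM 86.4% had a PM log2 fold change above 0 (47.8% of all loci), and of those that fell 89.7% had one below 0 (52.2% of all loci). In constant light, with 1 library per condition and at least 10 reads in either, 79.3% of the 1674 AM rises counted were higher in AM heat (49.1% of all loci), and 51.5% of the 2819 AM falls were lower (50.9% of all loci), which is at the background. Of the 5132 AM changes 330 differed between AM and PM, 185 that rose and 145 that fell.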

How the data were processed

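Total RNA from aerial tissue was made into poly(A) selected libraries (NEBNext) and read on an Illumina HiSeq instrument. The authors aligned reads to the TAIR10 genome with TopHat2 (2.1.0) and deposited raw gene counts from HTSeq (0.6.0), 1 file per library. The text uses 18 of the 20 libraries. A locus was tested if any of the 16 light:dark libraries held 10 counts of it or more, which left 21404 of 33601. The 8 AM libraries were fitted with edgeR (4.0.16, R 4.3.3): TMM scaling, replicate number as a block, quasi-likelihood test, Benjamini-Hochberg adjustment. A change was called at an adjusted p under 0.05 with an absolute log2 fold change over 0.5. The SE was taken as the absolute log2 fold change divided by the root of the F statistic. The AM and PM changes were compared in 1 fit of 16 libraries (PM minus AM, adjusted p under 0.05, no fold limit). In it each replicate number was 1 block shared by AM and PM libraries, and whether the numbers match between AM and PM was not tested. The PM log2 fold changes came from a separate fit of the 8 PM libraries with the same scaling and block. The constant light pair has 1 library per condition and no test, with at least 10 counts in either library.

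The replicate numbers come from the labels. The deviations from the group means of AM heat and AM control libraries with the same number correlated at 0.747, 0.795, 0.637 and 0.627 over 14340 genes, so the numbers were taken to pair the libraries. Across numbers, AM heat 2 with AM control 1 gave 0.3965 and AM heat 1 with AM control 2 gave 0.439, below the same-number values of 1 and 2. AM heat 4 with AM control 3 gave 0.665 and AM heat 3 with AM control 4 gave 0.658. These exceed the same-number values of 3 and 4, so the correlations do not show that numbers 3 and 4 are separate pairs. Depth varied as stated at the opening of the report, and low counts limit the weaker genes most. PCR duplicates carry no molecular identifiers, so floors (3 counts) cover counting error only. Reads of near-identical genes may be split between copies or lost.

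Genes were picked by a fixed rule: the 15 largest rises and falls of at least 5 CPM with 1 sign in all 4 pairs, and the 8 largest changes in mean CPM each way. To these it adds 9 regulators and the leading members of each list (up to 4, taking the first 2 each way where both occurred). The text gives only part of the genes picked, and AT-HSFB2B, HSFA7A and P58IPK were named outside the rule. The members and lists were chosen with earlier results of these data known, so they lend no independent support. Names and promoters came from RefSeq's TAIR10.1 annotation, to which 32835 loci matched. Alternatives were no block, a 2-level batch, DESeq2 (1.42.0), other scalings, filters and fold limits, all 16 libraries in 1 fit, and leaving out each number. The test was tried on simulated data first. The root marker sum leaves out 1 marker that is not reported here.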

Additional observations from a re-analysis of the deposited data

Results flagged for a closer look

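The change after 1 h of warmth differed between AM and PM for 27 of the genes described, by the test of the difference itself in the fit of all 16 light:dark libraries (edgeR, adjusted p under 0.05). Values are the PM change minus the AM change on the log2 scale as estimated in that fit, so a negative value is a change more positive in the AM. The AM and PM log2 fold changes given earlier come from separate fits, and subtracting them gives slightly different values. Among small HSPs AT1G53540 had -6.067, HSP17.4 -4.193, HSP21 -4.014, HSP23.6-MITO -3.77, HSP17.6II -3.465, AT2G29500 -3.116 and HSP17.6A -2.511. Other chaperones of the cytosol and organelles were HSA32 at -2.539, Cpn60beta2 at -1.117 and HSP60 at -0.9827. In ER folding PDIL2-2 had -2.042, CNX1 -1.524, ATERDJ3B -1.262, P58IPK -1.18 and SDF2 -0.969. APX2 stood at -4.291, MYB111 at -1.978, BR6OX2 at -1.227 and SR30 at -0.9809.

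In the other direction ORA47, a jasmonate regulator, had 6.163, EPR1 of the clock 3.717, PIL6 3.248 and PIF4 2.518. PORB had 1.843, LTI78 1.749, RS40 0.9231 and SEX4 0.8804. All 27 kept their sign under every alternative run. They were picked for passing on these same libraries, so the kept sign is no independent support. Of the 27, 14 passed without the replicate block, 27 with DESeq2 or RLE factors, 26 with upper-quartile scaling, and 15, 23, 15 and 3 without number 1, 2, 3 or 4.

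No sample stood apart by Dixon's test at the 95% level among the 74 groups of 4 libraries whose values were given library by library, where chance alone would mark about 1 in 20.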

How the results depend on the processing

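Without the replicate block 2778 loci were called (966 rose, 1812 fell) and 85 differed between AM and PM. The lower limit on size has as large an effect: 8174 were called with no fold limit (3813 rose), 2511 over 1 on the log2 scale (665 rose, 1846 fell) and 2370 by a test against 0.5 (glmTreat, 724 rose, 1646 fell). Scaling to library totals gave 1109 rises, and DESeq2 gave 1667 differences between AM and PM, against 688. Leaving out each number in turn gave 4304 to 5036 calls (1574 to 1831 rises, 2712 to 3205 falls) and 19 to 617 differences between AM and PM. The other alternatives (RLE, upper-quartile or no scaling, either filter, a 2-level batch, DESeq2, all 16 libraries) gave 4347 to 5590 calls, within 1.5 times the 5132 reported. Fits on numbers 1 and 2 and on numbers 3 and 4, chosen after seeing the data, gave 4380 and 4829. Of the 104 genes named, 80 kept direction and side under every alternative and 22 kept direction only. The 2 whose direction turned were never called: HSF3 had -0.0639 with upper-quartile scaling, -0.1391 without scaling and -0.06395 to 0.06391 when a number was left out, and PIL6 had -0.09403 to 0.08052 when a number was left out. The block changed the call of 12 named genes, GolS3, NRT1.1, CAB1, LHB1B1, ASN1, ELIP2, RS40, CLPB3, DIN10, PRR5, MYB111 and XTH6, which were not called without it. Of 150 list counts 67 moved by over 1.5 times without the block and 31 without scaling. The causes of these changes were not tested. With 4 pairs per comparison and 1 library per condition in constant light, changes of weakly counted genes and differences between times of day are the least settled values.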
